A study of Homo sapiens with 132 samples.

Results

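The MAP kinase phosphatases are dual-specificity phosphatases (DUSPs) that remove phosphate from both the threonine and the tyrosine of activated MAP kinases, and 10 of their genes (DUSP1, DUSP2, DUSP4, DUSP5, DUSP6, DUSP7, DUSP8, DUSP9, DUSP10 and DUSP16) were followed here. They were chosen by name, with earlier results of these data known. The Ensembl identifiers of the count tables were matched to these symbols, which make up 10 of the 65217 identifiers listed. Poly(A) RNA had been sequenced from 4 gastric cancer cell lines, all established from metastases: MKN1, MKN7 and N87 (NCI-N87), grown in RPMI medium, and Hs746T, grown in DMEM. MKN1 and Hs746T cells were left untreated or received 5 ng/ml EGF, 1 µg/ml of the EGFR antibody cetuximab (Cet), both together (EGF+Cet), 5 µg/ml of the HER2 antibody trastuzumab (Tra), 0.5 µM of the EGFR and HER2 kinase inhibitor afatinib (Afa), or trastuzumab with afatinib (Tra+Afa). MKN7 and N87 cells were left untreated or received trastuzumab, afatinib or both. Cells were collected after 4 h and 24 h with 3 replicates each, which gave 44 conditions. Each line is 1 population of cells. The study's methods speak in general of independent experiments, the labels only number the replicates, and p-values measure the spread between these libraries. Untreated cells, not cells given the solvent of afatinib, were the control, and every comparison of a line at a time point shares the same 3 untreated libraries.

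DUSP1, DUSP2, DUSP4 and DUSP5 encode the inducible nuclear phosphatases, of which DUSP5 acts on ERK. DUSP6, DUSP7 and DUSP9 encode the cytoplasmic phosphatases that prefer ERK, the last kinase of the RAS, RAF and MEK cascade below EGFR and HER2. DUSP8, DUSP10 and DUSP16 encode phosphatases that prefer the stress kinases JNK and p38. Several of these genes are themselves transcribed in response to ERK activity, which makes them negative feedback regulators and readouts of the pathway.

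Total counts ran from 25832557 to 69434151 per library with a median of 50725776, so that 3 counts, the limit a count of 0 allows, corresponded to 0.0432 to 0.116 CPM (counts scaled to a common library size). These limits cover counting error only. DUSP1 was listed at 0 in every library of the series. Its gene (GRCh38, chromosome 5, 172768090 to 172771195, minus strand) lies wholly inside another annotated gene, AC022217.3, and 1345 of 1418 protein-coding genes placed in that way (94.9%) were at 0 in every library, against 310 of 7358 (4.21%) that overlap no gene. DUSP1 could therefore not be assessed, and 9 members were measured. DUSP6 shares 40.5% of its exon bases with AC024909.2, DUSP16 2.80% and DUSP8 0.433% of theirs with other genes, so their levels are uncertain where reads fell on shared bases. In Hs746T, the 14 libraries of replicate 1 stood apart from the 28 of replicates 2 and 3 for DUSP10 (10.7 to 14.6 against 5.66 to 8.17 CPM), DUSP16 (36.6 to 44.2 against 23.6 to 28.1) and DUSP8 (0.396 to 1.02 against 0 to 0.216). The epithelial genes CDH1 and EPCAM had medians of 243 and 626 CPM in MKN7 and of 256 and 496 CPM in N87. Each median is over all libraries of the line, treated ones included. The mesenchymal FN1 was at 624 CPM in MKN7 and 237 CPM in N87, and VIM at 3.74 and 4.17 CPM. CDH1 was at 2.0 CPM in MKN1 and 0.785 CPM in Hs746T, where the mesenchymal VIM had medians of 559 and 1595 CPM. Other markers were mixed. In MKN1 the epithelial KRT8, KRT18 and KRT19 had medians of 11067, 2984 and 4166 CPM. EPCAM and CLDN4 were at 25.1 and 7.44 CPM there, and the mesenchymal CDH2, ZEB1 and FN1 at 0.399, 34.9 and 677 CPM. In Hs746T these keratin genes were at 342, 150 and 26.4 CPM and CDH2 at 79.8 CPM. The epithelial CLDN4 was at 308 CPM in Hs746T, above MKN7 (159 CPM). The mesenchymal ZEB1 and FN1 were at 57.2 and 2089 CPM in Hs746T, the fibroblast COL1A1 at 523 CPM and the endothelial PECAM1 at 155 CPM. In bulk RNA, fewer cells carrying a transcript and less transcript per cell cannot be told apart.

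Promoters were available for 8 of the 10 members, all but DUSP4 and DUSP5. They ran from 250 bases before to 50 bases after the transcript start (RefSeq, GRCh38.p14). Those of DUSP6, DUSP2 and DUSP7 are shown because the 3 genes fell together under afatinib in MKN7 and N87. That of DUSP8 is shown because it holds a motif and the gene moved little under afatinib. Capitals mark the cAMP response element TGACGTCA, which was searched on both strands. The windows are chr12:89352452-89352751 for DUSP6, chr2:96145391-96145690 for DUSP2, chr3:52056522-52056821 for DUSP7 and chr11:1572222-1572521 for DUSP8, all read on the minus strand.
DUSP6: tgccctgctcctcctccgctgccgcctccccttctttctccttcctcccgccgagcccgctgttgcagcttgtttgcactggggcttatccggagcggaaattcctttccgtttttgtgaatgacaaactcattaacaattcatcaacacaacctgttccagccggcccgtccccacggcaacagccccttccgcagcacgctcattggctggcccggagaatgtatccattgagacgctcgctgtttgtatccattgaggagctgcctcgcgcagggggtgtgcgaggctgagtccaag
DUSP2: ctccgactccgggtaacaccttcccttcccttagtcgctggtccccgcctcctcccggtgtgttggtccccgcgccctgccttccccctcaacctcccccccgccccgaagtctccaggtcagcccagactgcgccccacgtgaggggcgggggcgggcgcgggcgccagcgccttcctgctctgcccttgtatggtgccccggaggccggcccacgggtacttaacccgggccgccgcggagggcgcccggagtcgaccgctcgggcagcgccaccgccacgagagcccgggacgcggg
DUSP7: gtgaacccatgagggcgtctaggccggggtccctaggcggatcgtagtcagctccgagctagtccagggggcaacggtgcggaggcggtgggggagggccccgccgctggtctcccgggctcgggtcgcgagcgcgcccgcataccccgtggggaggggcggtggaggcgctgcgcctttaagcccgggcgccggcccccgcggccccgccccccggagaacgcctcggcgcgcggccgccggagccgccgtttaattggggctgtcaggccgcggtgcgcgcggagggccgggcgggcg
DUSP8: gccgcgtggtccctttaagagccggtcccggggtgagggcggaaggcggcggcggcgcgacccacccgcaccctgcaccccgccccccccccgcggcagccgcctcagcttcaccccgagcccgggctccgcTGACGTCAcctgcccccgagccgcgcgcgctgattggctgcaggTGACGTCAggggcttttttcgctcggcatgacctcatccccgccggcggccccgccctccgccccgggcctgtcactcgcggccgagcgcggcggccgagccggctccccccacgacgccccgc
The element occurred at 2 positions in the DUSP8 window, at 118 and 74 bases before the start, and once in that of DUSP1, at 125 bases before it, while 1.85% of 35116 human promoter windows hold it. The ETS motif CCGGAA (17.2% of windows), the AP-1 motif TGANTCA (7.71%) and the CArG box (1.29%) were not found in the windows of the 8 members. G and C made up 58.3% of the DUSP6 window, 75% of that of DUSP2, 78.0% of that of DUSP7 and 78.3% of that of DUSP8.

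**Figure D1:**
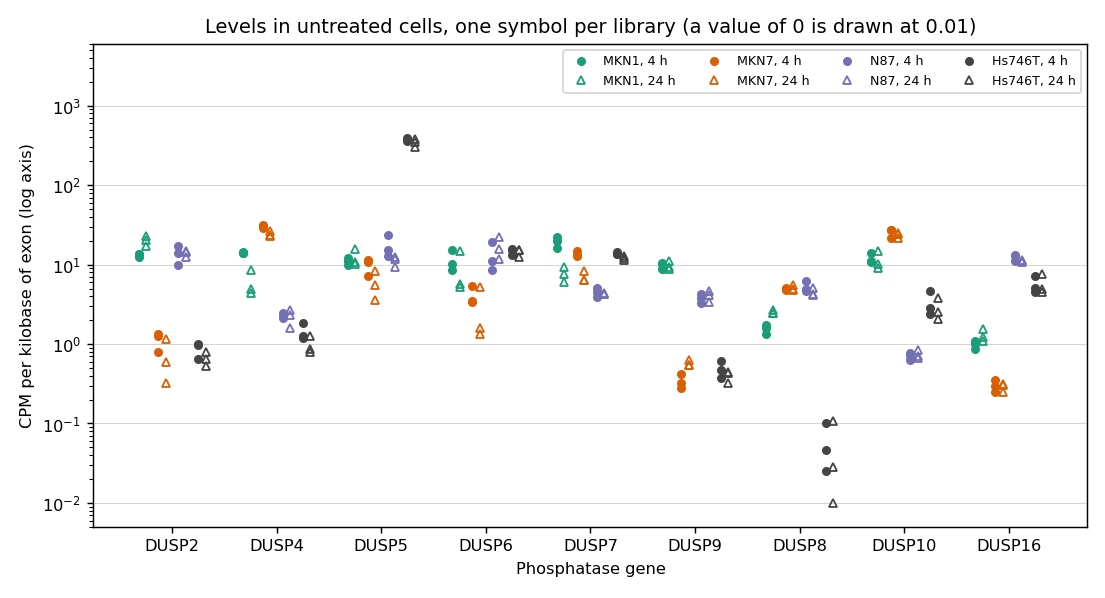
Level of the 9 measured phosphatase genes in untreated cells, in CPM per kilobase of exon on a log axis, with 1 symbol per library (filled circles 4 h, open triangles 24 h, colours for the 4 lines, a value of 0 drawn at 0.01). DUSP5 in Hs746T stands above all other members, and DUSP8 in the same line lies lowest.

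The lines differed in which phosphatase they expressed most. Levels of different genes were compared as CPM per kilobase of exon not shared with another gene. On that scale DUSP5 in untreated Hs746T at 4 h reached 375 ± 14 CPM per kb (SD, n = 3), 90.3% of the summed level of the 9 members, against 17.3 ± 5.7 in N87, 11 ± 1.1 in MKN1 and 9.74 ± 2.2 in MKN7. The Hs746T and MKN1 levels differed by 34.3-fold in a joint fit of all libraries, a log2 difference (MKN1 minus Hs746T) of -5.10 (SE 0.33, edgeR adjusted p = 6.4e-26). In MKN7 the leading member was DUSP4 with 30.3 ± 1.5 CPM per kb (33.7% of the sum), followed by DUSP10 with 25.4 ± 3.3. N87 had no such leader, and without division by length DUSP16 came first there: DUSP5, DUSP2, DUSP6 and DUSP16 lay at 17.3 ± 5.7, 13.6 ± 3.6, 13 ± 5.6 and 12.4 ± 1.1 CPM per kb. In MKN1 DUSP7 was first with 19.3 ± 3.0, 20.6% of the sum, ahead of DUSP4 with 14.1 ± 0.092.

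Read by member, the order of the lines at 4 h, per kb, differed from gene to gene. DUSP6 lay at 14.8 ± 1.3 in Hs746T, 13 ± 5.6 in N87 and 11.3 ± 3.4 in MKN1, which did not differ beyond their spread, and at 4.11 ± 1.2 in MKN7. DUSP7 was highest in MKN1, nearly level in Hs746T (13.8 ± 0.37) and MKN7 (13.6 ± 1.2), and lowest in N87 (4.49 ± 0.53). The lead of MKN1 over MKN7 and Hs746T was 0.50 and 0.48 on the log2 scale, short of the fold limit used below. At 24 h MKN1 lay below Hs746T (-0.66, edgeR adjusted p = 1.4e-06), also short of it. DUSP9 followed the order MKN1 (9.84 ± 0.90), N87 (3.82 ± 0.51), Hs746T (0.483 ± 0.12) and MKN7 (0.339 ± 0.072). Hs746T and MKN7 differed by less than that limit, MKN7 minus Hs746T being -0.53 at 4 h. At 24 h it was 0.55 (edgeR adjusted p = 0.016), the reverse order. DUSP4 ran from MKN7 over MKN1 to N87 (2.31 ± 0.17) and Hs746T (1.44 ± 0.37), the last pair differing by less than the fold limit used below. DUSP2 split the lines into N87 and MKN1 (13.2 ± 0.70) on one side and MKN7 (1.14 ± 0.29) and Hs746T (0.877 ± 0.20) on the other, and no difference within either side was detected.

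Among the members that prefer JNK and p38, DUSP10 was highest in MKN7 and DUSP16 in N87. DUSP10 lay at 11.9 ± 1.8 CPM per kb in MKN1, 3.27 ± 1.2 in Hs746T and 0.715 ± 0.074 in N87, and all neighbours in that order differed, MKN1 and MKN7 by a log2 difference of -1.09. That pair lay within the fold limit without replicate 1 (-0.94) or 2 (-0.95). The DUSP10 difference between MKN7 and N87 was 5.15 (SE 0.32, edgeR adjusted p = 1.9e-27) on the log2 scale. DUSP16 showed the reverse between these lines, -5.38 (SE 0.28, edgeR adjusted p = 1.3e-32), with 5.60 ± 1.5, 0.986 ± 0.11 and 0.30 ± 0.049 CPM per kb in Hs746T, MKN1 and MKN7. DUSP8 was alike in N87 (5.22 ± 0.80) and MKN7 (4.90 ± 0.14), lower in MKN1 (1.56 ± 0.19) and near the counting floor in Hs746T (0.0577 ± 0.039). Throughout, a gene is called regulated when the adjusted p of edgeR's quasi-likelihood test is below 0.05 and the log2 fold change (log2FC) lies beyond 1 in either direction. By that rule 7, 6 and 7 of the 9 members differed between untreated MKN1 and MKN7, N87 and Hs746T at 4 h, beside 38.4%, 43.8% and 46% of all genes tested. Between MKN7 and N87, MKN7 and Hs746T, and N87 and Hs746T the counts were 7, 6 and 7, beside 41.4%, 43% and 46.4%. Hs746T was grown in another medium than the other 3 lines, so that medium and line cannot be told apart for it.

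**Figure D2:**
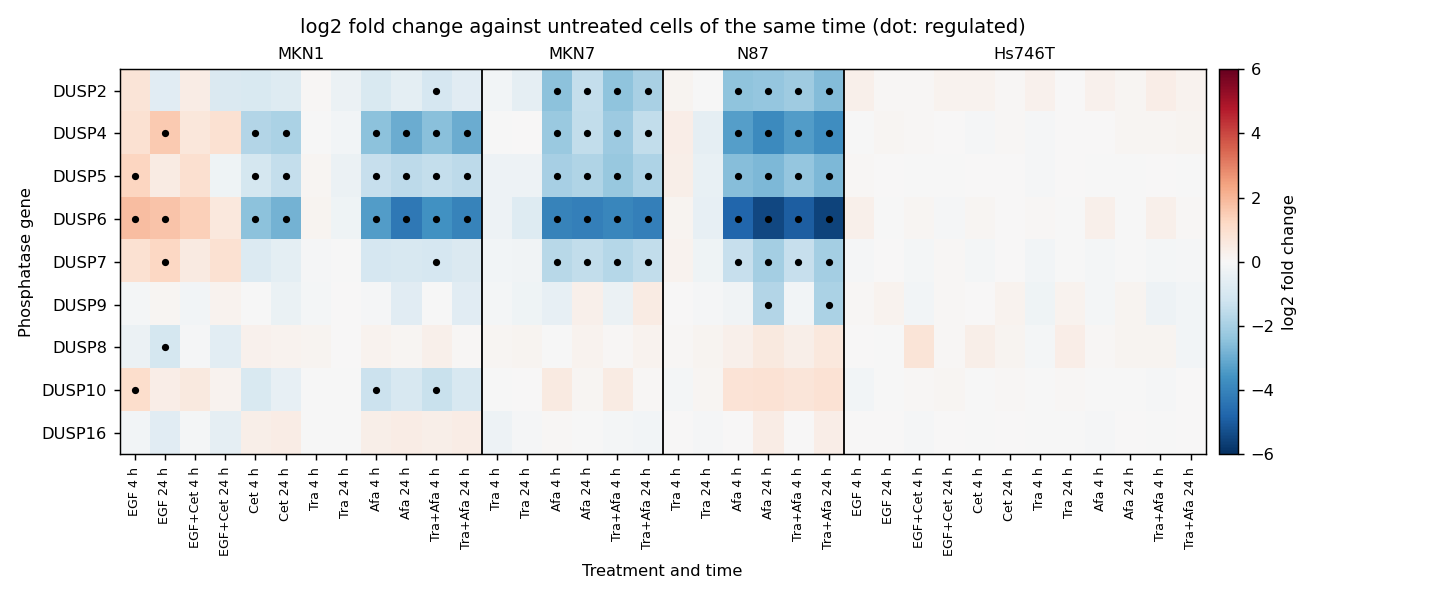
Heat map of the log2FC of the 9 measured phosphatase genes against untreated cells of the same line and time in 36 comparisons, red for higher and blue for lower, with a dot where the gene was regulated. Under afatinib and Tra+Afa DUSP4, DUSP5 and DUSP6 carry dots in every column of MKN1, MKN7 and N87, EGF in MKN1 gives dots for rises of DUSP4, DUSP5, DUSP6, DUSP7 and DUSP10 and a fall of DUSP8, and Hs746T has no dot.

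Over the 36 comparisons with untreated cells, DUSP6 was called lower in 14 and higher in 2, DUSP4 lower in 14 and higher in 1, and DUSP5 lower in 14 and higher in 1. DUSP7 and DUSP2 were each called lower in 9, DUSP7 also higher in 1. DUSP9 and DUSP10 were called lower in 2 each, DUSP8 lower in 1, DUSP10 higher in 1, and DUSP16 in none. DUSP16 passed the adjusted p alone at 24 h, lower after EGF (-0.69) and EGF+Cet (-0.55) in MKN1, and higher after afatinib in MKN1 (0.45) and after afatinib (0.42) and Tra+Afa (0.40) in N87. Afatinib lowered 4 of the 9 members in MKN1 at 4 h and 3 at 24 h, where 0.439% and 1.02% of the genes tested were called lower. It lowered 5 members at both times in MKN7 (all genes 1.59% and 3.25%), and 5 and 6 in N87 (all genes 1.22% and 11.5%). The median log2FC of the 9 members under afatinib lay between -0.96 and -2.03 in these 3 lines, while that of all genes lay between 0.01 and 0.04.

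DUSP6, the cytoplasmic phosphatase that holds ERK in check, fell furthest. Its 3 untreated N87 libraries at 4 h held 24.4, 54.6 and 31.6 CPM and the afatinib libraries 1.64, 1.09 and 1.33 CPM. The groups did not overlap, and the level was 27.3-fold lower, a log2FC of -4.77 (SE 0.36, edgeR adjusted p = 5.5e-09), which ranked it first by fold among the 232 genes called lower in that comparison. At 24 h N87 went from 33.1, 62.8 and 44.5 CPM to 1.04, 0.933 and 1.20 CPM, a log2FC of -5.46 (SE 0.37, edgeR adjusted p = 4.6e-11) and 44.1-fold lower. In MKN7 at 4 h, untreated libraries held 9.41, 9.12 and 14.8 CPM and afatinib libraries 0.739, 0.611 and 0.703 CPM, a log2FC of -4.01 (SE 0.49, edgeR adjusted p = 4.2e-06). All afatinib libraries of MKN7 were thus below 1 CPM.

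In MKN1 at 4 h DUSP6 was at 28.0, 24.3 and 42.5 CPM without treatment and at 2.81, 3.40 and 2.98 CPM under afatinib, 10.3-fold lower, a log2FC of -3.36 (SE 0.42, edgeR adjusted p = 1.6e-06). At 24 h the untreated libraries were 15.5, 14.5 and 41.2 CPM, so that replicate 3 was well above the others, and afatinib left 1.22, 1.15 and 1.20 CPM. That log2FC was -4.31 (SE 0.46, edgeR adjusted p = 6.6e-08), and -3.65 without replicate 3. MKN7 had the same feature at 24 h, with 4.18, 3.56 and 13.9 CPM untreated and 0.614, 0.413 and 0.218 CPM under afatinib, a log2FC of -4.12 (SE 0.52, edgeR adjusted p = 1.5e-06) that became -2.94 without replicate 3. Hs746T stood apart from the other 3 lines, its DUSP6 at 4 h being 36.0, 41.7 and 43.3 CPM untreated and 44.5, 53.9 and 52.4 CPM under afatinib. That difference of 0.32 (SE 0.15, edgeR adjusted p = 0.68) was not called. With replicate numbers as a block it was 0.32 with an edgeR adjusted p of 0.0014, still short of the fold limit.

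DUSP7, a cytoplasmic ERK phosphatase like DUSP6, moved less and with little spread. In MKN7 at 4 h it went from 72.0, 70.5 and 83.6 CPM to 26.4, 22.3 and 23.3 CPM under afatinib, a log2FC of -1.65 (SE 0.13, edgeR adjusted p = 9.3e-09). In N87 the fall was -1.38 (SE 0.11, edgeR adjusted p = 1.2e-08) at 4 h and -2.03 (SE 0.11, edgeR adjusted p = 2.2e-12) at 24 h, where 25.1, 25.4 and 25.1 CPM became 6.30, 6.09 and 6.12 CPM. The change was larger at 24 h in N87, by -0.65 (SE 0.15, edgeR adjusted p = 0.0023) in the interaction test, though without replicate 3 the adjusted p was 0.090. In MKN1 at 4 h, with 111, 92.8 and 127 CPM untreated and 57.4, 51.3 and 57.3 CPM under afatinib, the log2FC of -0.998 (SE 0.15, edgeR adjusted p = 4.9e-05) lay just inside the fold limit and was not called. It was called with DESeq2 (-1.01) and without replicate 1 or 2.

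DUSP9, the remaining cytoplasmic member, fell in N87 after 24 h but not after 4 h. At 4 h its libraries were at 11, 9.44 and 12.2 CPM untreated and 10.8, 8.14 and 9.16 CPM under afatinib, which overlap. At 24 h they were at 12.1, 9.70 and 13.4 CPM and 3.57, 3.07 and 3.90 CPM, which do not, a log2FC of -1.74 (SE 0.21, edgeR adjusted p = 2.2e-07). The interaction of afatinib with time was -1.52 (SE 0.28, edgeR adjusted p = 2.5e-04). In MKN1 the late fall was smaller, -0.67 (SE 0.09, edgeR adjusted p = 2.5e-06), and short of the fold limit.

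**Figure D3:**
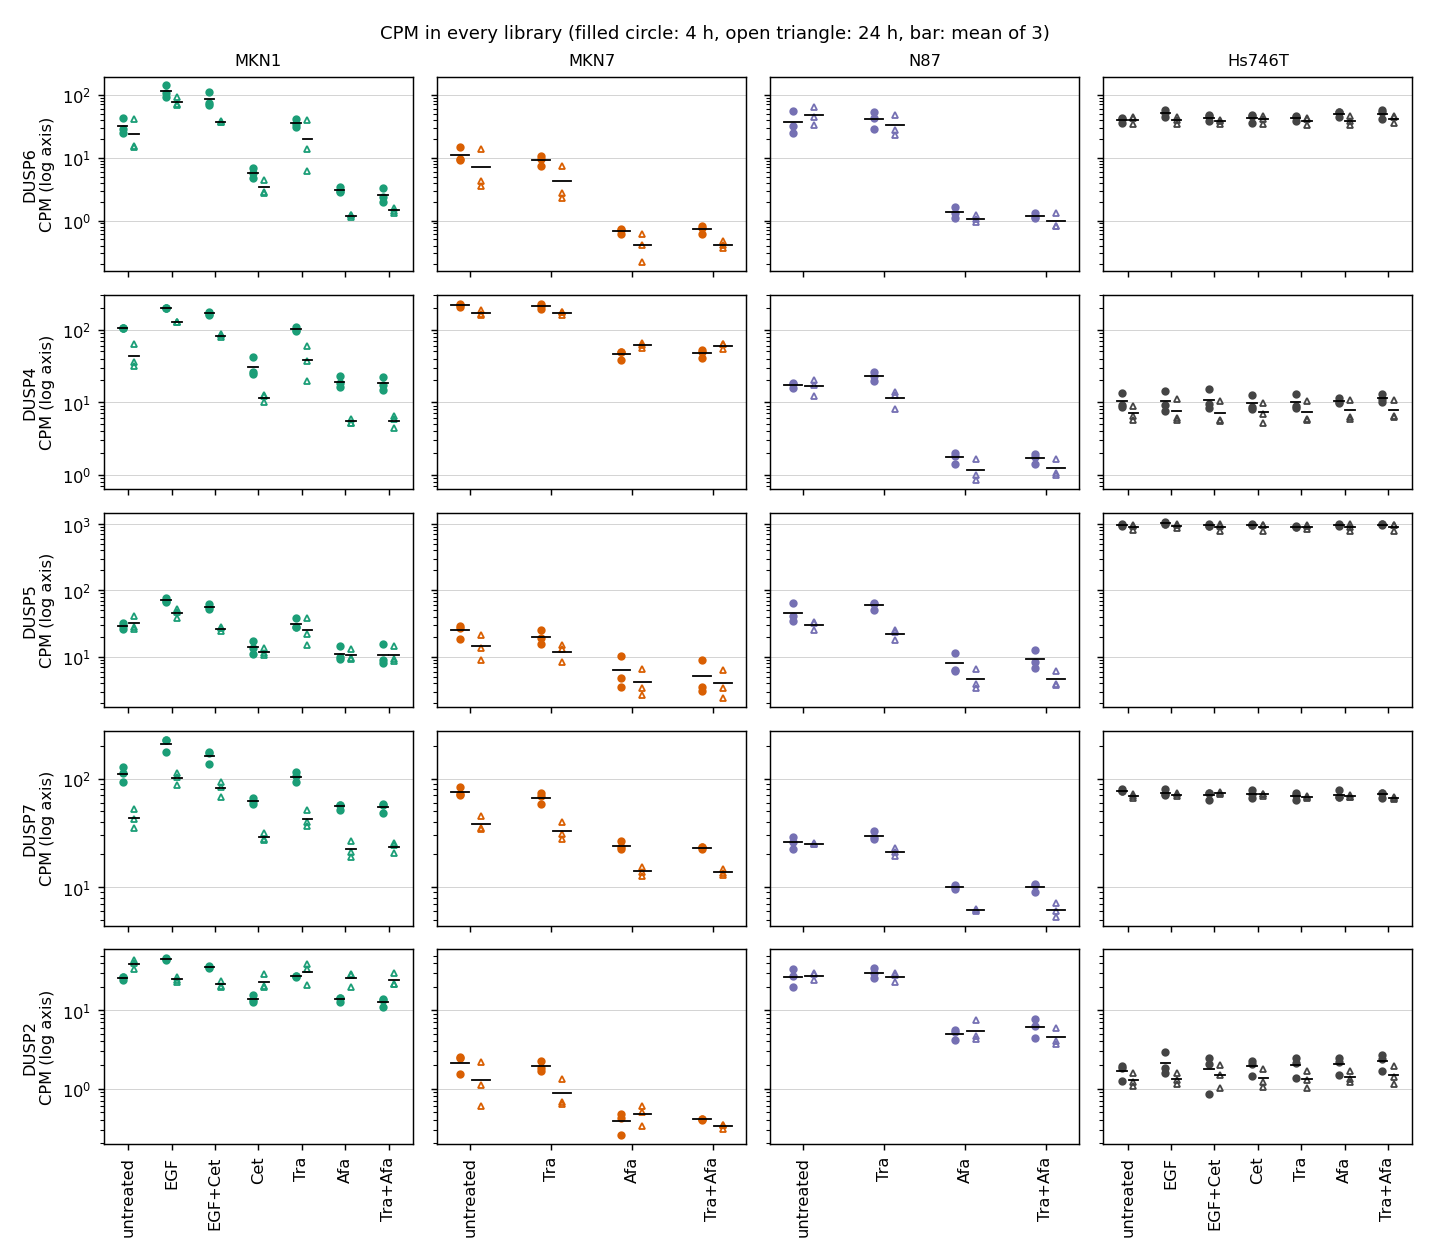
CPM of DUSP6, DUSP4, DUSP5, DUSP7 and DUSP2 in each library on log axes, by line and treatment (filled circles 4 h, open triangles 24 h, bars the mean of 3 libraries). Afatinib and Tra+Afa libraries lie low for DUSP6 in MKN1, MKN7 and N87, EGF libraries of MKN1 lie above the untreated ones at 4 h, and DUSP5 in Hs746T stays between 782 and 1077 CPM.

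DUSP4, a nuclear phosphatase of ERK and JNK, fell in the same lines. N87 libraries at 4 h went from 18.3, 17.7 and 15.7 CPM to 2.01, 1.84 and 1.40 CPM under afatinib, a log2FC of -3.30 (SE 0.25, edgeR adjusted p = 7.9e-09), and at 24 h from 20.1, 17.4 and 12.0 CPM to 1.63, 1.01 and 0.841 CPM, a log2FC of -3.83 (SE 0.26, edgeR adjusted p = 6.1e-11). MKN1 fell from 104, 104 and 105 CPM to 18.4, 23 and 16.0 CPM at 4 h, a log2FC of -2.45 (SE 0.25, edgeR adjusted p = 8.4e-08). At 24 h, untreated MKN1 libraries of 31.1, 36.4 and 62.5 CPM faced 5.21, 5.92 and 5.23 CPM, a log2FC of -2.99 (SE 0.26, edgeR adjusted p = 3.0e-09). The groups did not overlap in any of these 4 comparisons.

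MKN7, the line with the highest DUSP4, kept a sizeable level under the drug. It held 216, 204 and 226 CPM at 4 h and 49.1, 37.9 and 49.6 CPM under afatinib, a log2FC of -2.24 (SE 0.11, edgeR adjusted p = 1.8e-11). At 24 h 162, 161 and 187 CPM stood against 56.3, 62.1 and 65.4 CPM, a log2FC of -1.47 (SE 0.11, edgeR adjusted p = 1.6e-09). The effect was thus smaller at 24 h, with an interaction of 0.77 (SE 0.15, edgeR adjusted p = 9.7e-04). At 24 h the MKN7 effect was also smaller than that of N87, by 2.33 (SE 0.40, edgeR adjusted p = 2.1e-06), and than that of MKN1, where MKN1 minus MKN7 was -1.505 (SE 0.37, edgeR adjusted p = 0.0033), a call lost without replicate 2 or 3.

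DUSP5, the nuclear phosphatase specific for ERK, fell in the same 3 lines and held its high level in Hs746T. N87 at 4 h went from 41.3, 63.7 and 34.1 CPM to 11.5, 6.15 and 6.37 CPM, a log2FC of -2.53 (SE 0.30, edgeR adjusted p = 2.6e-06), and the value at 24 h was -2.71 (SE 0.31, edgeR adjusted p = 1.1e-07). MKN1 at 4 h went from 25.9, 32.1 and 29.4 CPM to 9.31, 14.5 and 9.83 CPM, -1.37 (SE 0.26, edgeR adjusted p = 9.1e-04), and at 24 h by -1.57 (SE 0.26, edgeR adjusted p = 3.3e-05). MKN7 libraries spread more: 28.9, 18.5 and 27.5 CPM untreated and 10.4, 3.55 and 4.82 CPM under afatinib at 4 h, a log2FC of -1.99 (SE 0.45, edgeR adjusted p = 0.0027). Replicate 3 decided that call, since without it the log2FC of -1.75 had an edgeR adjusted p of 0.072, and at 24 h -1.31 had 0.11. In Hs746T DUSP5 was at 1010.5, 941 and 968 CPM untreated and 1011, 942 and 961 CPM under afatinib at 4 h, and over all 42 libraries of this line it stayed between 782 and 1077 CPM.

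DUSP2, a nuclear phosphatase known from activated lymphocytes, was lowered in MKN7 and N87. N87 at 4 h had 19.6, 27.6 and 33.5 CPM untreated and 5.23, 4.15 and 5.67 CPM under afatinib, a log2FC of -2.42 (SE 0.24, edgeR adjusted p = 2.5e-07), and -2.33 (SE 0.24, edgeR adjusted p = 2.4e-08) at 24 h. MKN7, where the gene was scarce, went from 2.51, 1.52 and 2.43 CPM to 0.479, 0.256 and 0.418 CPM at 4 h, a log2FC of -2.47 (SE 0.38, edgeR adjusted p = 5.3e-05). In MKN1 at 4 h 26.8, 24.5 and 26.5 CPM became 14.4, 14.2 and 12.9 CPM, a log2FC of -0.90 (SE 0.16, edgeR adjusted p = 5.5e-04), which passed the adjusted p but not the fold limit. The effect in MKN1 was weaker than in MKN7 by 1.54 (SE 0.42, edgeR adjusted p = 0.035), but this test missed 0.05 when any of the 3 replicates was left out, and weaker than in N87 by 1.54 (SE 0.34, edgeR adjusted p = 0.0027), which was lost without replicate 2 or 3.

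**Figure D4:**
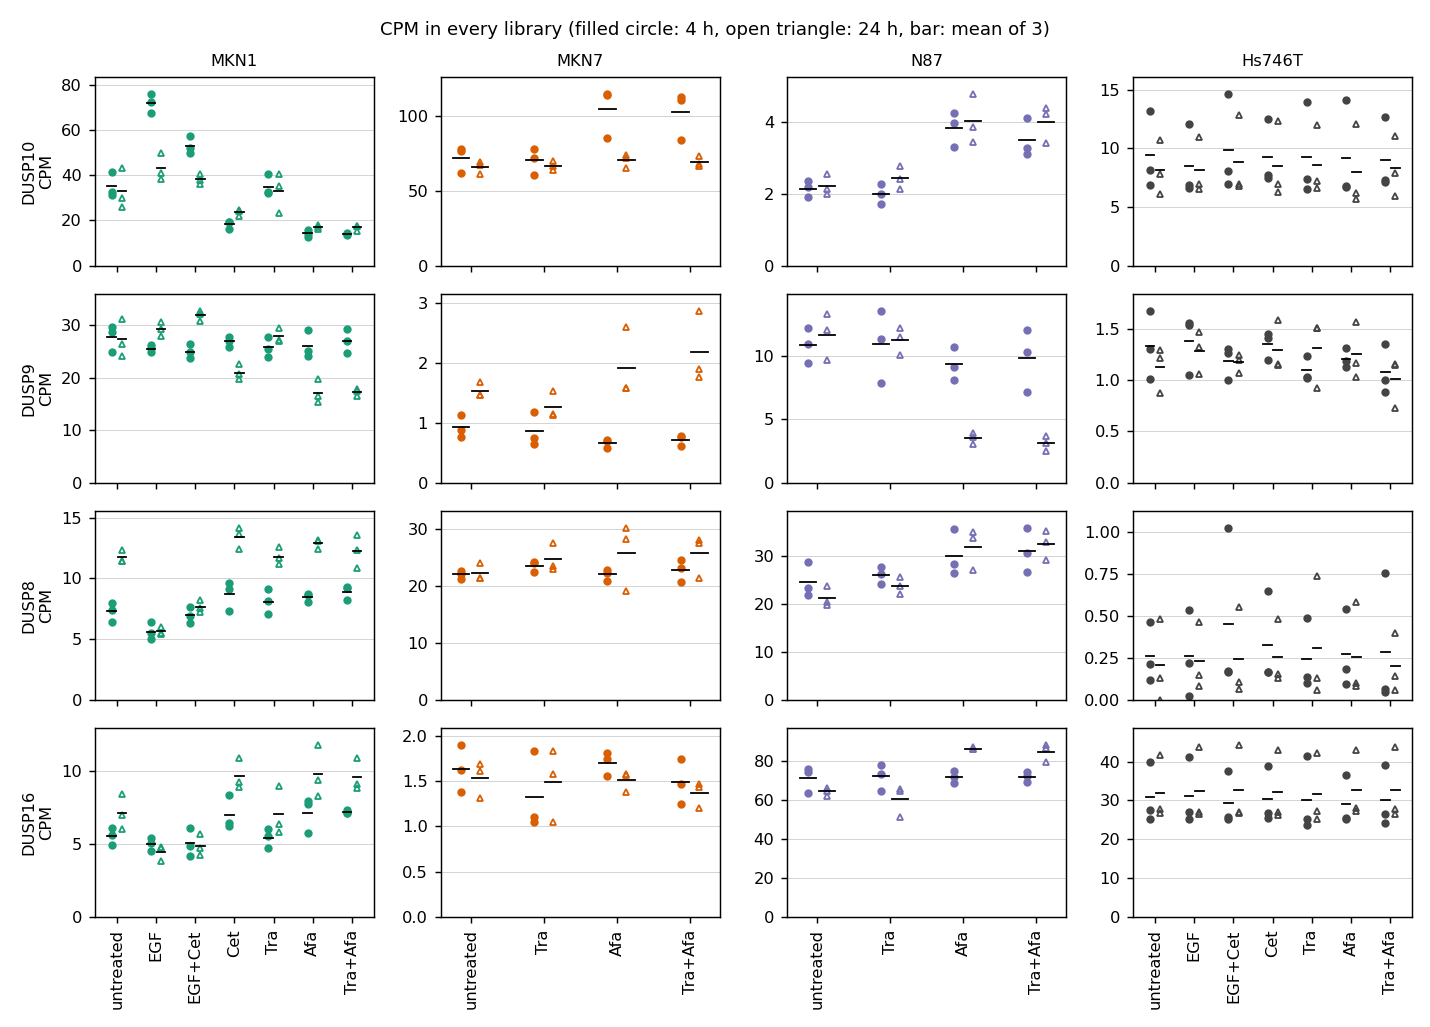
CPM of DUSP10, DUSP9, DUSP8 and DUSP16 in each library on linear axes that start at 0 and are scaled for each panel, by line and treatment (filled circles 4 h, open triangles 24 h, bars the mean of 3 libraries). DUSP10 lies lower under afatinib in MKN1 and higher in N87, DUSP9 falls in N87 at 24 h, and in Hs746T 1 of the 3 libraries of a condition lies above the others for DUSP10 and DUSP16.

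DUSP10, which encodes a phosphatase of JNK and p38, went opposite ways in different lines. MKN1 at 4 h had 31.3, 32.7 and 41.5 CPM untreated and 12.9, 15.9 and 13.9 CPM under afatinib, a log2FC of -1.30 (SE 0.16, edgeR adjusted p = 9.0e-07). N87 at 4 h had 2.34, 1.90 and 2.17 CPM untreated and 4.25, 3.97 and 3.28 CPM under afatinib, a rise of 0.84 (SE 0.17, edgeR adjusted p = 0.0012). MKN7 rose from 77.0, 78.3 and 61.8 CPM to 115, 114 and 85.7 CPM, 0.54 (SE 0.12, edgeR adjusted p = 0.0026). Both rises passed the adjusted p and stayed within the fold limit. The difference between lines was itself called: MKN1 minus N87 was -2.13 (SE 0.40, edgeR adjusted p = 2.6e-04) at 4 h and -1.82 (SE 0.40, edgeR adjusted p = 1.5e-04) at 24 h, and MKN1 minus MKN7 was -1.86 (SE 0.37, edgeR adjusted p = 7.0e-04) at 4 h. Without replicate 2 the adjusted p of the 4 h differences was 0.083 and 0.096, and without replicate 3 that of the latter was 0.11. MKN1 minus MKN7 at 24 h was -1.04 (SE 0.37, edgeR adjusted p = 0.063) and was not called. MKN7 then had means of 65.9 CPM untreated and 70.5 CPM under afatinib.

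DUSP16 and DUSP8, the other members with a preference for JNK and p38, moved little under afatinib. In N87 at 24 h DUSP16 was at 66.2, 64.6 and 61.9 CPM untreated and 85.8, 85.9 and 87 CPM under afatinib, groups that did not overlap, and its log2FC of 0.42 (SE 0.09, edgeR adjusted p = 3.0e-04) was a rise short of the fold limit. DUSP8 in the same libraries was at 23.8, 20.3 and 19.7 CPM and 33.8, 27.1 and 35 CPM, a rise of 0.59 (SE 0.13, edgeR adjusted p = 6.8e-04). In MKN1 at 24 h DUSP16 also passed the adjusted p alone, with 0.45 (SE 0.17, edgeR adjusted p = 0.044). In MKN1 and MKN7 neither gene was called under afatinib, the log2FC of DUSP16 lying between -0.03 and 0.45 and that of DUSP8 between 0 and 0.21 over both times. In Hs746T DUSP8 was at 0.461, 0.211 and 0.115 CPM untreated at 4 h, near the counting floor, and at 0 in 1 library, so no fold is given there.

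**Figure D5:**
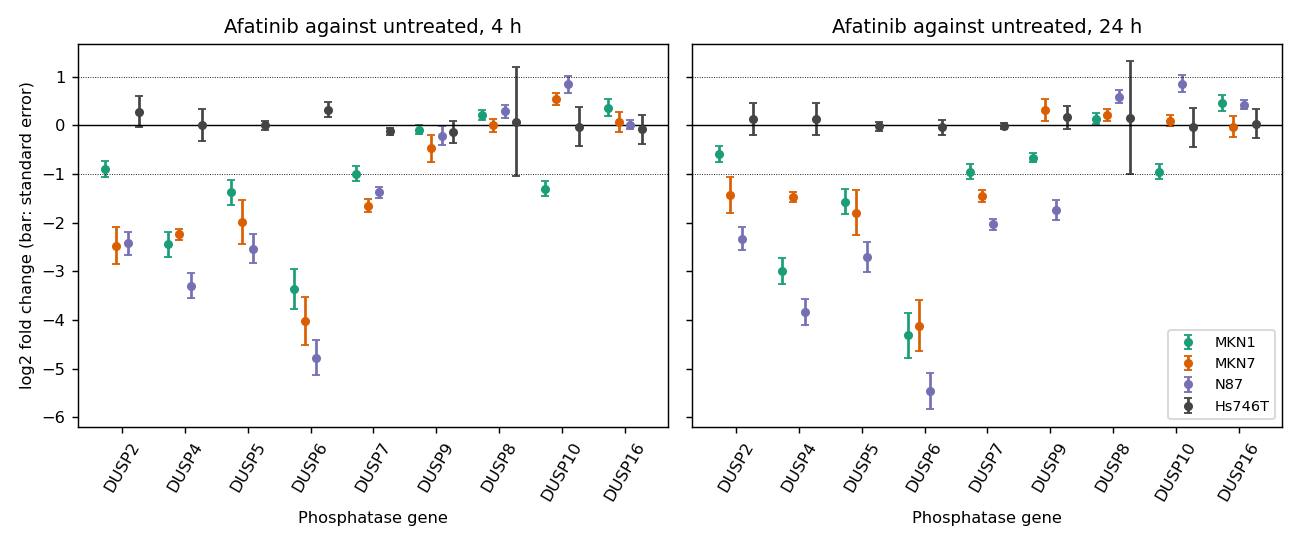
log2FC of the 9 measured phosphatase genes after afatinib at 4 h and 24 h in the 4 lines, with error bars of 1 SE and dotted lines at the fold limits of 1 and -1. DUSP6 is the lowest member in MKN1, MKN7 and N87, DUSP10 lies on opposite sides of 0 in MKN1 and N87, and the members of Hs746T lie near 0, DUSP8 with the widest error bar.

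EGF was given only to MKN1 and Hs746T, and members were called after it only in MKN1. After 4 h of EGF, DUSP6 went from 28.0, 24.3 and 42.5 CPM to 106, 93.3 and 140.3 CPM, 3.58-fold higher, a log2FC of 1.84 (SE 0.37, edgeR adjusted p = 9.9e-04). DUSP5 rose from 25.9, 32.1 and 29.4 CPM to 66.1, 77.3 and 68.6 CPM, 1.28 (SE 0.25, edgeR adjusted p = 7.4e-04). DUSP10 rose to 72.6, 67.8 and 76.0 CPM, 1.04 (SE 0.15, edgeR adjusted p = 1.0e-05), a call that rested on replicate 1, without which the log2FC was 0.95. These 3 of 9 members were called higher, beside 1.23% of all genes, and DUSP4 (0.93), DUSP7 (0.91) and DUSP2 (0.79) passed the adjusted p below the fold limit. DUSP8 changed by -0.37 (SE 0.11, edgeR adjusted p = 0.031), also short of it.

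After 24 h of EGF the set had changed. DUSP6 (1.70 (SE 0.37, edgeR adjusted p = 5.0e-04)), DUSP4 and DUSP7 were called higher, 3 of 9 beside 2.11% of all genes. DUSP4 libraries were at 126, 129 and 128 CPM against 31.1, 36.4 and 62.5 untreated, a log2FC of 1.56 (SE 0.24, edgeR adjusted p = 5.4e-06). DUSP7 libraries were at 111, 87.8 and 103 CPM against 42.4, 34.8 and 52.5, a log2FC of 1.22 (SE 0.15, edgeR adjusted p = 1.8e-07). DUSP8 was called lower, 1 of 9 beside 6.24% of all genes, with 5.95, 5.52 and 5.45 CPM against 12.3, 11.4 and 11.4, a log2FC of -1.05 (SE 0.11, edgeR adjusted p = 6.1e-09). DUSP2 had turned from a rise at 4 h to a fall of -0.66 (SE 0.16, edgeR adjusted p = 0.0015), and the time interaction of -1.45 (SE 0.23, edgeR adjusted p = 1.1e-04) was called.

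Cetuximab alone lowered DUSP6, DUSP4 and DUSP5 in MKN1 at both times, 3 of 9 members beside 0.257% of all genes at 4 h and 0.328% at 24 h. DUSP6 fell to 4.66, 6.94 and 5.75 CPM at 4 h, a log2FC of -2.45 (SE 0.40, edgeR adjusted p = 2.7e-04), and to 2.87, 2.71 and 4.48 CPM at 24 h, -2.83 (SE 0.41, edgeR adjusted p = 5.1e-05). DUSP4 fell to 26.0, 42.2 and 24.1 CPM at 4 h, -1.76 (SE 0.24, edgeR adjusted p = 3.1e-05). All cetuximab libraries lay below all untreated ones for both genes. DUSP5 at 4 h was at 13.6, 17.5 and 10.9 CPM, -1.06 (SE 0.26, edgeR adjusted p = 0.024), and leaving out replicate 1, 2 or 3 gave adjusted p-values of 0.13, 0.096 and 0.30. Against cetuximab, afatinib differed for 0 members at 4 h (all genes 0%) and 24 h (all genes 0.0202%), the DUSP6 differences being -0.91 (SE 0.42, edgeR adjusted p = 1.00) and -1.48 (SE 0.48, edgeR adjusted p = 0.41). At an unadjusted p below 0.05 there were 3 and 5 members, and DESeq2 called 0 and 1. The share of all genes at an unadjusted p is not given here or below, so such counts cannot be set against one. DUSP4 at 24 h was -1.08 (SE 0.26, edgeR adjusted p = 0.11), and was called by DESeq2 and with replicate numbers as a block, -1.07 (SE 0.23, adjusted p = 0.0058).

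With EGF and cetuximab together the mean lay between those of either agent for 8 of 9 members at 4 h and 7 at 24 h, the exceptions being DUSP9 at both times and DUSP2 at 24 h. The share of all genes lying between is not given. A mean could count as between within the spread, as for DUSP16 at 4 h with 5.07 ± 0.98 CPM beside 5.03 ± 0.45 with EGF. DUSP6 at 4 h was at 74.8, 67.7 and 111 CPM, against 106, 93.3 and 140.3 with EGF and 4.66, 6.94 and 5.75 with cetuximab. Relative to cetuximab, 6 of 9 members were called higher at 4 h (all genes 1.4%) and 4 at 24 h (all genes 2.94%), led by DUSP6 with 3.87 (SE 0.41, edgeR adjusted p = 2.0e-08) and DUSP4 with 2.45 (SE 0.25, edgeR adjusted p = 6.8e-09) at 4 h. Relative to EGF, 0 members were called at 4 h (all genes 0.126%) or 24 h (all genes 0.156%) with edgeR. At an unadjusted p below 0.05 there were 4 and 5 members, again with no share of all genes at that rule, and DESeq2 called 0. For DUSP6 at 24 h, with 36.3, 36.2 and 38.1 CPM against 71.1, 69.7 and 90.7, the replicate block gave a called log2FC of -1.03 (SE 0.25, adjusted p = 0.0069).

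Relative to untreated cells, EGF+Cet changed 0 members by edgeR at 4 h (all genes 0.116%) and 24 h (all genes 3.38%), with 12 of the 18 tests below an unadjusted p of 0.05 and 1 called by DESeq2. That one was DUSP6 at 4 h, with 1.42 (SE 0.37, edgeR adjusted p = 0.062), called also with the replicate block, 1.42 (SE 0.25, adjusted p = 3.3e-04). At 24 h 3 members (DUSP4, DUSP6 and DUSP7) were called once replicate 3, with its high untreated DUSP6, was left out.

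Trastuzumab alone called 0 members in MKN1 (all genes 0% and 0% at 4 h and 24 h), MKN7 (0% and 0%) and N87 (0% and 0%) by edgeR. Of these 54 tests 3 had an unadjusted p below 0.05, and DESeq2 and the replicate block called 0. N87 was the line with the most ERBB2 RNA (12557 CPM untreated, against 4228 in MKN7, 149 in MKN1 and 85.9 in Hs746T). Its DUSP4 at 4 h was at 26.4, 19.7 and 22.8 CPM under trastuzumab, all above the untreated 18.3, 17.7 and 15.7. At 24 h DUSP4 was at 13.9, 12.6 and 8.0 CPM under trastuzumab, which overlapped the untreated 20.1, 17.4 and 12.0. The interaction with time was -0.93 (SE 0.32, edgeR adjusted p = 1.00) (all genes called 0%), and -0.93 (SE 0.13, adjusted p = 0.0061) with the replicate block.

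No member was called between afatinib with and without trastuzumab, the DUSP6 difference in N87 at 24 h being -0.09 (SE 0.41, edgeR adjusted p = 1.00). Tra+Afa differed from afatinib for 0 members in MKN1 (all genes 0% and 0% at 4 h and 24 h), MKN7 (0% and 0%), N87 (0% and 0%) and Hs746T (0% and 0%), and of the 72 tests 0 had an unadjusted p below 0.05 and DESeq2 called 0. Against untreated cells the pair of drugs lowered 6 and 3 of 9 members in MKN1 at 4 h and 24 h (all genes 0.49% and 1.12%), 5 and 5 in MKN7 (1.76% and 3.28%) and 5 and 6 in N87 (1.28% and 12.2%). The additional 2 in MKN1 at 4 h were DUSP2 (-1.03) and DUSP7 (-1.02), both at the limit and both lost without replicate 3. Against trastuzumab, 5 and 3 members were lower in MKN1 (all genes 0.495% and 1.02%), 5 and 5 in MKN7 (1.22% and 2.16%) and 5 and 6 in N87 (1.64% and 10.8%).

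Hs746T was the line in which no member was called after any treatment. The 12 comparisons with untreated cells called 0 of 108 tests by edgeR, 4 had an unadjusted p below 0.05, and DESeq2 called 0. Of all genes, 0% and 0% were called after EGF at 4 h and 24 h, 0% and 0% after EGF+Cet, 0% and 0% after cetuximab, 0% and 0% after trastuzumab, 0% and 0% after afatinib and 0% and 0% after Tra+Afa, so the members' 0 is also that of the whole table. EGFR RNA in untreated cells was 277 CPM in this line, against 349 in MKN1, 577 in MKN7 and 184 in N87. With the replicate block DUSP6 passed the adjusted p below the fold limit in 3 comparisons at 4 h, by 0.33 after EGF, 0.32 after afatinib and 0.31 after Tra+Afa.

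The effect of afatinib was set against that of Hs746T by interaction tests, called at an adjusted p below 0.05. At 4 h MKN1, MKN7 and N87 differed from Hs746T for 3, 5 and 5 members, beside 0.372%, 5.3% and 6.74% of all genes. At 24 h they differed for 4, 5 and 6 members, beside 4.41%, 18.8% and 35.1%. DUSP4, DUSP6 and DUSP7 were called in all 6 of these tests, with DUSP6 at -5.40 (SE 0.51, edgeR adjusted p = 7.3e-16) for N87 at 24 h. The DUSP7 difference of MKN1 was lost without replicate 3 at both times and without replicate 1 at 4 h. Without replicate 3 the counts at 24 h were 2 for MKN1 and 3 for MKN7. With the replicate block the counts for MKN1 were 7 at 4 h and 8 at 24 h, beside 3008 and 4896 of 22832 genes.

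The same tests were made between MKN1, MKN7 and N87. MKN1 minus MKN7 gave 3 and 2 members at 4 h and 24 h (all genes 1.38% and 7.61%), MKN1 minus N87 2 and 5 (1.83% and 28%), and MKN7 minus N87 0 and 3 (1.01% and 21.4%). DUSP9 at 24 h separated N87 from MKN7 by 2.02 (SE 0.26, edgeR adjusted p = 6.5e-10) and from MKN1 by 1.05 (SE 0.24, edgeR adjusted p = 2.4e-04). No difference in DUSP6 between these lines was called, with MKN1 minus N87 at 1.43 (SE 0.50, edgeR adjusted p = 0.16) at 4 h, but the replicate block called it, 1.40 (SE 0.38, adjusted p = 0.0068). With the block the counts for MKN1 minus N87 were 7 and 8 (all genes 2426 and 10160 of 22832). For MKN7 minus N87 they were 1 and 8 (all genes 1993 and 8752), and for MKN1 minus MKN7 at 24 h 5 (5844). At an unadjusted p below 0.05 MKN7 minus N87 at 4 h had 1 member, and DESeq2 called 0.

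Some members also differed between untreated cells collected at 24 h and at 4 h. In MKN1, DUSP7 went from 111, 92.8 and 127 CPM at 4 h to 42.4, 34.8 and 52.5 CPM at 24 h, a log2FC of -1.35 (SE 0.15, edgeR adjusted p = 2.9e-08), and DUSP4 fell by -1.27 (SE 0.24, edgeR adjusted p = 8.7e-05). These 2 of 9 were called, beside 1.8% of all genes called lower. In MKN7 (all genes 1.76%), N87 (0.0472%) and Hs746T (0.129%) 0 members were called by edgeR, with 4, 1 and 1 at an unadjusted p below 0.05 and 0 by DESeq2. In MKN7 DUSP7 fell by -0.98 (SE 0.13, edgeR adjusted p = 8.3e-05), just within the fold limit, and 3 members were called without replicate 3.

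Interactions of treatment with time were called for 3 members after EGF in MKN1 (DUSP2, DUSP8 and DUSP10, all genes 9.46%), for DUSP2 after EGF+Cet (2.07%), and for DUSP9 after afatinib (2.77%) and Tra+Afa (2.73%). After cetuximab the count was 0 (all genes 0.192%) by edgeR. In MKN7 DUSP4 was called after afatinib (18%) and Tra+Afa (17.8%). In N87 DUSP7, DUSP9 and DUSP16 were called after afatinib (35.8%) and Tra+Afa (40.2%), and in Hs746T 0 after afatinib (0%). With the replicate block the counts were 6 and 5 for EGF and EGF+Cet in MKN1 (all genes 5213 and 3064 of 19815). In MKN7 they were 4 and 3 for afatinib and Tra+Afa (all genes 6786 and 6799 of 18483). For afatinib they were 5 in N87 (all genes 9706 of 19078) and 1, DUSP6, in Hs746T (67 of 18667). At an unadjusted p below 0.05 there were 2 members for cetuximab in MKN1 and 0 for afatinib in Hs746T, and DESeq2 called 0 in both. Of the EGF calls in MKN1, DUSP10 was lost without any 1 of the 3 replicates and DUSP8 without replicate 1 or 2, and the DUSP2 call after EGF+Cet was lost without replicate 1. The DUSP9 calls in MKN1 were lost without replicate 1 or 3, and the DUSP16 calls in N87 without replicate 1 or 2.

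The pathway around these phosphatases was read from lists of genes. The lists were chosen with earlier results of these data known, so their counts are descriptive and give no independent evidence. Of 13 transcriptional targets of ERK 12 were measured in MKN1, and afatinib lowered 10 at 4 h and 11 at 24 h, where 0.439% and 1.02% of all genes were called lower. SPRY4, an inhibitor of receptor tyrosine kinase signalling, fell by -3.76 and the transcription factor EGR1 by -3.59 on the log2 scale at 4 h. In N87 11 targets fell at both times (all genes 1.22% and 11.5%), and in MKN7 10 fell at both times (1.59% and 3.25%) and 1 rose at 24 h, beside 10.3% of all genes. Cetuximab lowered 7 in MKN1 at both times (all genes 0.257% and 0.328%) and EGF raised 5 at both times (1.23% and 2.11%), while in Hs746T afatinib changed 0 by edgeR. In N87 at 24 h of afatinib 29.6% of all genes were called (18.1% higher), so the few calls of the other lists there say little about those lists. Of 10 MAP kinases, MAPK10 (JNK3) was the one called after EGF, cetuximab or afatinib, with -1.31 after 24 h of EGF in MKN1 and 2.18 after 24 h of afatinib in N87. With at least 10 counts required in every library 0 MAP kinases were called in either comparison, and the MKN1 call was also lost without replicate 1 or 2. Of 20 cascade genes MAP2K6, a kinase that activates p38, rose under afatinib in MKN7 at 4 h, beside 1.81% of all genes (1.29) and in N87 at 4 h, beside 2.03% (1.34), and 24 h (1.77). In N87 at 24 h MAP2K3, another activator of p38, fell (-1.19), as did HRAS (-1.06). PTPRR, a tyrosine phosphatase of MAP kinases, rose at 4 h in MKN7 (1.18) and N87 (1.44). Of 15 atypical DUSPs, which lack the kinase-binding domain, 9 were measured in N87, and at 24 h of afatinib DUSP15 rose (1.46) while DUSP14 (-1.14) and DUSP12 (-1.01) fell, 3 of 9 beside 29.6% of all genes. In MKN1, MKN7 and Hs746T afatinib changed 0 atypical DUSPs by edgeR.

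Likeness was measured as Pearson's correlation over the 44 condition means of log2 CPM, with each line's mean subtracted, among 6241 genes whose SD over these conditions exceeded 0.3. Conditions of a line share controls and no test is given. DUSP6 was most like SPRY4 (0.982), DUSP4 (0.963) and DUSP5 (0.958). DUSP4 was most like the receptor gene EPHA2 (0.978), DUSP6 and MYC (0.963). DUSP5 was most like SPRY4 (0.965), LONRF3 (0.964) and DUSP6. Among members the lowest value, -0.81, was between DUSP4 and DUSP16.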

How the data were processed

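RNA was sequenced from 4 cell lines, and raw counts per Ensembl gene identifier were deposited by the authors for each library. Their processing notes name Trim Galore, STAR and hg38, and the counting settings are not given in the sources used here. Identifiers were matched to GENCODE release 29. Counts were tested in R 4.3.3 with edgeR 4.0.16 (TMM, filterByExpr at min.count 10 and min.total.count 15, glmQLFit and glmQLFTest) over all genes, with all libraries of a line fitted together and 1 mean per treatment and time. Differences between lines came from a joint fit of all libraries. Benjamini-Hochberg adjusted p-values below 0.05 with a log2FC beyond 1 were called, interactions by adjusted p alone. CPM is the count scaled by the TMM-adjusted library size. DESeq2 1.42.0 was an alternative.

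Replicates with the same number deviated together in all 36 comparisons with untreated cells (correlation 0.104 to 0.707), and the pairing comes from the replicate numbers in the labels. The members and lists were chosen with earlier results of these data known. The genes named are all members, EGFR and ERBB2, and epithelial, mesenchymal, fibroblast and endothelial markers. To these come up to 3 called genes per list and comparison with the largest log2FC, and the 3 genes most correlated with DUSP4, DUSP5 or DUSP6. Tests against untreated cells were checked on simulated MKN7 data at 4 h, with replicates drawn independently of their numbers. Interactions, differences between lines and the replicate block were not simulated. Plots used matplotlib 3.10.9 (Python 3.11.15).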

Additional observations from a re-analysis of the deposited data

Results flagged for a closer look

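Effects that differed between time points by an interaction term were found in MKN1 for 3 members after EGF (all genes 9.46%). They were found for 1 each after EGF+Cet (2.07%), afatinib (2.77%) and Tra+Afa (2.73%) in that line. In MKN7 the count was 1 after afatinib (all genes 18%) and 1 after Tra+Afa (17.8%), in both cases DUSP4. In N87 it was 3 after afatinib (all genes 35.8%) and 3 after Tra+Afa (40.2%). In neither of these lines was the share of members called above that of all genes. The effect of afatinib differed between lines at 4 h for 3 members between MKN1 and MKN7 (all genes 1.38%). It differed for 2 between MKN1 and N87 (1.83%) and 3 between MKN1 and Hs746T (0.372%). Between MKN7 and Hs746T (5.3%) and between N87 and Hs746T (6.74%) it differed for 5 each. At 24 h the counts were 2, 5 and 4 for MKN1 against MKN7, N87 and Hs746T (all genes 7.61%, 28% and 4.41%). They were 3 for MKN7 against N87 (21.4%), 5 for MKN7 against Hs746T (18.8%) and 6 for N87 against Hs746T (35.1%). DUSP10 differed in direction between MKN1 and N87, DUSP9 differed in timing within N87, and both differences were tested and called.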

How the results depend on the processing

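Where a member's log2FC was called as reported or under an alternative, its sign was the same in both. Of all 990 log2FC values 234 changed sign under at least 1 alternative, 381 times in all, and in 0 of these was the edgeR or DESeq2 adjusted p below 0.05 on either side. The alternatives were DESeq2, scaling by library size alone, no filter on low counts, a minimum of 10 counts in each library, a replicate block, a fit of only the compared groups, and each replicate left out. Without a fold limit, the members called against untreated MKN1 cells were 7 after EGF, 6 after cetuximab at 4 h, and 7 after EGF, 5 after EGF+Cet, 7 after cetuximab, 8 after afatinib and 7 after Tra+Afa at 24 h. It also raised the counts from 3 to 7 for Tra+Afa against trastuzumab and from 4 to 8 for EGF+Cet against cetuximab in MKN1 at 24 h, from 4 to 8 between untreated MKN1 and N87 at 24 h, and from 2 to 4 for the time change of untreated MKN1. Untreated MKN7 went from 0 to 3. Dropping the limit can only raise the counts over all genes too. Their share at that rule is not given, so these counts of members cannot be set against it. By DESeq2 the counts were 1 for EGF+Cet in MKN1 at 4 h (all genes 26) and 1 for afatinib against cetuximab at 24 h (all genes 8). They were 3 for the time interaction of EGF+Cet (all genes 807) and 4 for the afatinib effect of MKN1 minus MKN7 at 24 h (all genes 2164). With no filter they were 1 for EGF+Cet in MKN1 at 4 h, 1 for afatinib against cetuximab at 24 h, and 2 for the time interactions of afatinib and of Tra+Afa in MKN7. Library size alone gave 3 for the time interaction of EGF+Cet, 3 targets of ERK after 24 h of EGF in MKN1, 1 atypical DUSP after 24 h of afatinib in MKN1 and 2 other phosphatases of MAP kinases after 24 h of afatinib in N87, a count that no filter also gave. Over all genes it moved the median log2FC beyond 0.1 in 8 of 36 comparisons, from -0.196 (MKN1 EGF at 24 h) to 0.307 (N87 Tra+Afa at 24 h). With 10 counts in every library, which tests fewer genes, the counts were 3 for the time interaction of EGF+Cet, 4 for MKN1 minus MKN7 at 24 h, and in N87 after 24 h of afatinib 0 MAP kinases, 1 atypical DUSP and 2 other phosphatases. In MKN1 after 24 h of EGF this filter, no filter and a fit of only the compared groups each left 0 MAP kinases and 0 atypical DUSPs. Fitting only the compared groups gave 1 member for EGF+Cet against EGF at 24 h, 2 for the time interaction of EGF+Cet, 0 for those of afatinib and Tra+Afa in MKN1, and 1 for MKN7 minus N87 at 4 h. The causes of these changes were not tested. For no filter, library size alone, the filter of 10 counts and the compared groups, no share of all genes is given beside these counts.

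With the replicate block the counts of members in MKN1 were 1 for EGF+Cet against untreated at 4 h (all genes 51 of 19815). They were 1 for EGF+Cet against EGF (102 genes) and 1 for afatinib against cetuximab (15 genes) at 24 h. For time interactions they were 6 (EGF, 5213 genes) and 5 (EGF+Cet, 3064 genes) in MKN1. In MKN7, where 18483 genes were tested, they were 4 (afatinib, 6786 genes) and 3 (Tra+Afa, 6799 genes). In N87, with 19078 tested, they were 5 (afatinib, 9706 genes) and 1 (trastuzumab, 70 genes), and in Hs746T 1 (afatinib, 67 genes). For the afatinib effect, with 22832 genes tested, they were 7 for MKN1 minus N87 at 4 h (2426 genes). They were 7 for MKN1 minus Hs746T (3008 genes) and 1 for MKN7 minus N87 (1993 genes) at 4 h. At 24 h they were 5 for MKN1 minus MKN7 (5844 genes) and 8 for MKN1 minus N87 (10160 genes). MKN1 minus Hs746T (4896 genes) and MKN7 minus N87 (8752 genes) gave 8 each at 24 h. In N87 after 4 h of afatinib 2 other phosphatases were called. The block moved no other count of members by over 1.5 times. Over all genes it raised the count from 135 to 214 for MKN1 afatinib at 4 h, from 66 to 116 for cetuximab at 4 h, from 264 to 411 for cetuximab at 24 h, from 23 to 51 for EGF+Cet at 4 h and from 0 to 66 for Hs746T afatinib at 4 h. With 10 counts in every library the counts over all genes fell to 394 from 830 for MKN1 afatinib at 24 h, to 934 from 1656 for MKN1 EGF at 24 h, to 1504 from 2502 for MKN7 afatinib at 24 h and to 3763 from 5649 for N87 afatinib at 24 h.

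Leaving out 1 replicate gave these ranges where a count left its reported value by over 1.5 times. The shares of all genes in these fits are not given, so the ranges describe the listed genes alone. In MKN1 the members called ranged from 0 to 1 for EGF+Cet at 4 h, 0 to 3 for EGF+Cet at 24 h, 3 to 5 for afatinib at 24 h and 3 to 5 for Tra+Afa at 24 h. The ranges of the time interactions were 1 to 2 for EGF, 0 to 1 for EGF+Cet, afatinib and Tra+Afa in MKN1, and 1 to 2 for afatinib and Tra+Afa in MKN7. Tra+Afa against trastuzumab in MKN7 at 24 h ranged from 3 to 5, and the untreated time change in MKN7 from 0 to 3. The afatinib effect ranged from 0 to 1 and 0 to 2 for MKN1 minus MKN7 at 4 h and 24 h, from 0 to 3 for MKN1 minus N87 at 4 h, from 2 to 5 for MKN1 minus Hs746T and from 3 to 5 for MKN7 minus Hs746T at 24 h. Targets of ERK called after EGF in MKN1 ranged from 3 to 4 at 4 h and from 3 to 7 at 24 h. MAP kinases and atypical DUSPs called after 24 h of EGF in MKN1 ranged from 0 to 1, and other phosphatases after afatinib in N87 from 1 to 2 at 4 h and from 0 to 1 at 24 h.

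Without division by length the member that led per kb held 29.2% of the family's CPM in MKN1 at 4 h (DUSP7) and 15.5% at 24 h (DUSP2), 50.5% and 52.7% in MKN7 (DUSP4), 17.4% in N87 at 4 h (DUSP5), and 85.0% and 85.1% in Hs746T (DUSP5). On that scale other members led in MKN1 at 24 h (DUSP7, 16.7%) and in N87 at 4 h (DUSP16, 27.2%) and 24 h (DUSP16, 26.2%). Counting all exon bases of DUSP6, an alternative chosen after seeing the data, lowered its untreated level at 4 h to 6.71 CPM per kb in MKN1, 2.44 in MKN7, 7.76 in N87 and 8.78 in Hs746T. Depth limits DUSP8 in Hs746T, DUSP2 and DUSP9 in MKN7 and DUSP6 in MKN7 under afatinib, where levels were near or below 1 CPM.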
